A study of Mus musculus with 27 samples.

Results

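Laminins and nidogens are secreted proteins of the basement membrane, the thin sheet of matrix under epithelia and around vessels, muscle and nerve. RNA of 9 of their genes was followed here (Lama1, Lama2, Lama4, Lama5, Lamb1, Lamb2, Lamc1, Nid1 and Nid2), out of 23279 listed genes. They were taken by gene symbol from a list of the family that names no value, drawn up with earlier results of these data known. All 9 passed the filter on low values (1 CPM in at least 3 libraries), which 14438 genes passed.

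A laminin is a trimer of 1 alpha, 1 beta and 1 gamma chain, and the alpha chain carries the main binding sites for the receptors on the cell surface, integrins and dystroglycan. Trimers polymerise into a sheet, and the nidogens bind both the laminin gamma chain and collagen IV and so link the networks of the basement membrane. In the limb bud, basement membrane lies under the surface ectoderm and around the vessels, and mesenchymal cells also make some of its components.

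The study made limb bud-like tissue from mouse embryonic stem (ES) cells and compared it with embryonic tissue by RNA-seq. ES-FLBs and ES-HLBs are mesenchymal cells of the forelimb and hindlimb type, sorted on day 9 of culture from pooled aggregates for GFP that marks expression of Hand2, a factor of lateral plate and limb mesenchyme. All of them came from 1 targeted line (EB5 Hand2::GFP +/-) and were grown with BMP4 and Matrigel on days 1 to 5 and later with LDN193189 and Wnt3. By the methods of the study, both types also had hydrocortisone, a glucocorticoid, and methylcellulose in the medium from day 6.5. The types differ in retinoic acid for ES-FLBs on days 5 to 6 and a retinoic acid antagonist for ES-HLBs on days 6 to 6.5. These additions cannot be told apart from culture itself in comparisons with the embryo. The embryonic groups were Slc:ICR mice: early forelimb and hindlimb buds (early FLBs and HLBs, labelled E10.0), E10.5 FLBs and HLBs, and, also at E10.5, the tail bud (TB), branchial arch (BA) and heart (Ca), all amputated whole with no sorting named. Matrigel is itself a basement membrane extract rich in laminin protein, and the values below are of RNA only. The labels do not say whether the 3 libraries of a group came from separate cultures or litters, so the p-values measure the spread between these libraries.

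The values are CPM (reads of a gene as parts per 1000000 reads of its library), scaled between libraries by a trimmed mean, and 26 of 27 libraries were used. Replicate 2 of the E10.5 HLBs, which has no values on several chromosomes, was left out, so that group has 2 libraries. Depth was 5543792 to 22142346 reads per library, and 3 reads, taken as the floor, were worth 0.135 to 0.541 CPM. The early limb buds were the deepest (19642310 reads or more), and depth cannot be told apart from stage there. Sorting also separates the ES-LBs from all embryonic groups. The 8 markers of limb mesenchyme summed to 1426 to 1633 CPM in the ES-LB libraries and to 1106 to 1460 CPM in the early limb buds. The 10 markers of endothelium summed to 40.4 to 64.5 CPM in the ES-LBs against 472 to 607 CPM in the early limb buds, and the 10 markers of surface ectoderm and epithelium to 123 to 260 CPM against 412 to 546 CPM, with no marker of either list at 0. The 9 markers of endoderm went the other way, 129 to 182 CPM in the ES-LBs and 64.8 to 112 CPM in the early limb buds. The part of these cell types in the results below was not tested, and fewer cells of a type and less RNA per cell cannot be told apart in these samples.

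**Figure D1:**
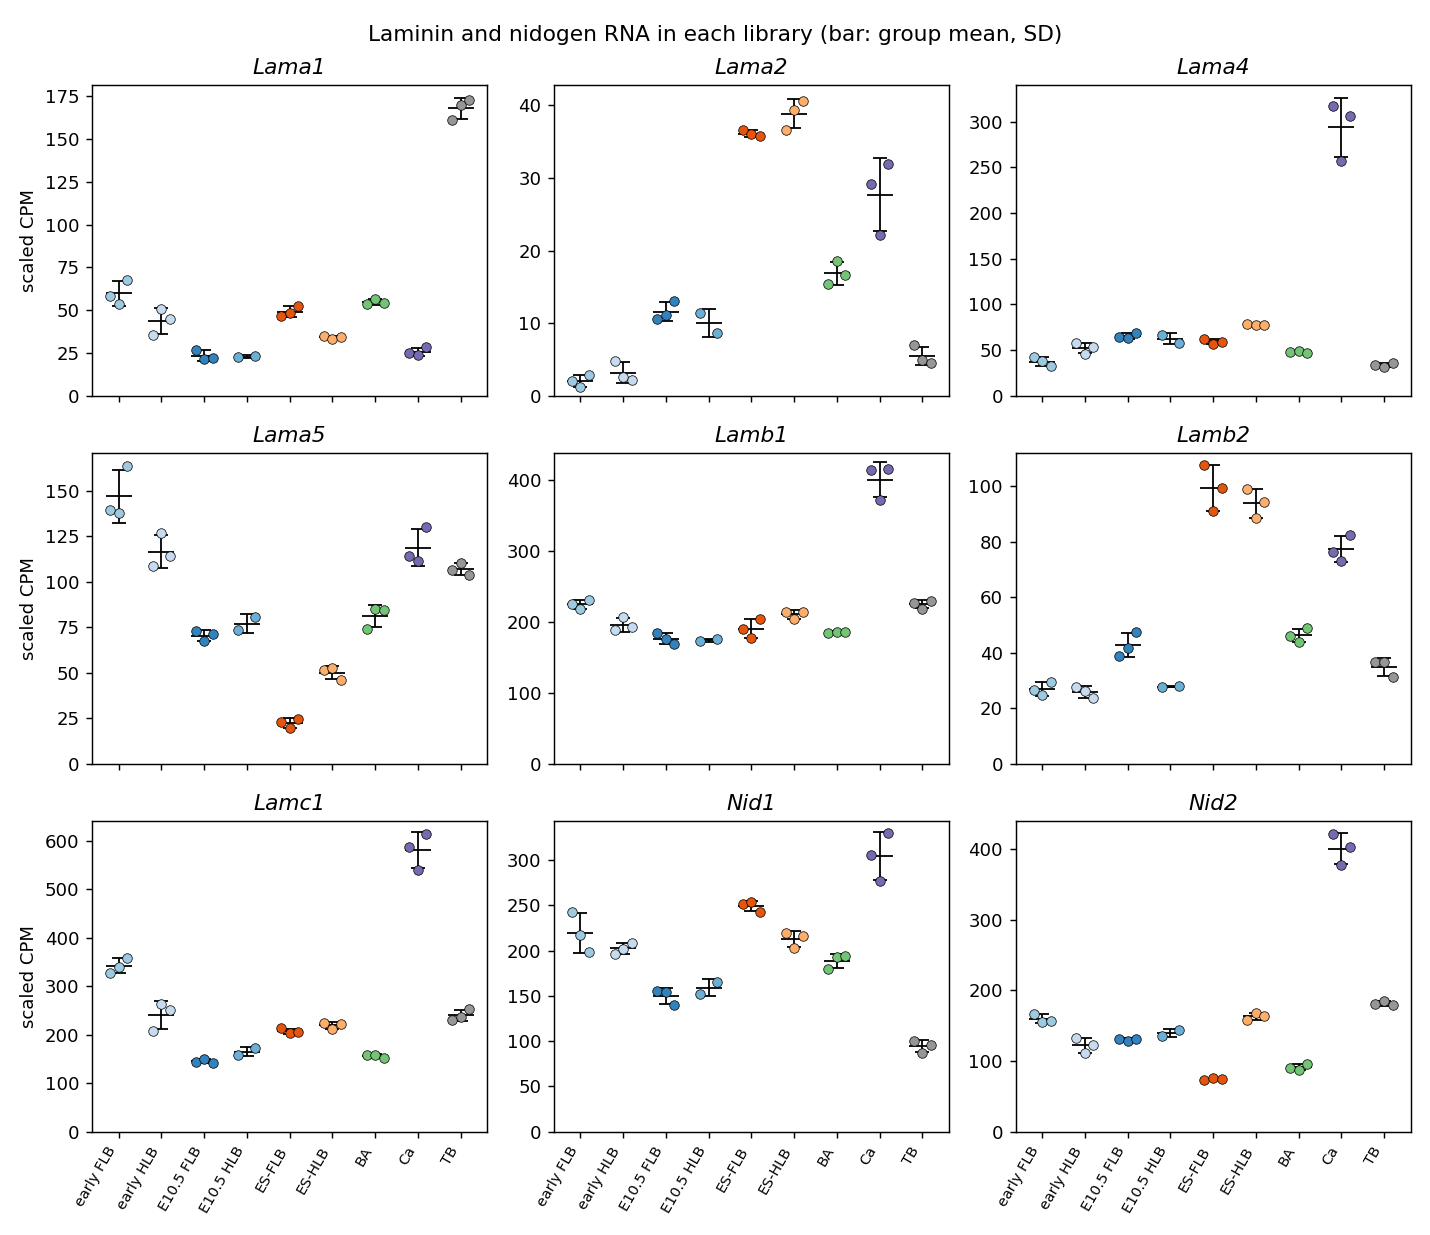
Scaled CPM (vertical axes, linear, from 0) of each laminin and nidogen gene in the 26 libraries of the 9 groups. Points are libraries, and bars give the group mean with its SD (n = 3, and n = 2 for E10.5 HLB). The ES-LB libraries are the highest for Lama2 and Lamb2 and the lowest for Lama5, the heart is the highest for Lama4, Lamb1, Lamc1, Nid1 and Nid2, and the tail bud for Lama1.

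The genes lie on 8 chromosomes and are all protein coding (GRCm38, GENCODE). Lama1 is at chr17:67697259-67822647 and Lama5 at chr2:180176373-180225859. Lama2 (chr10:26980036-27619758) and Lama4 (chr10:38965515-39110188) share a chromosome but are far apart on it. Lamb1 is at chr12:31265234-31329644, Lamb2 at chr9:108479736-108490530 and Lamc1 at chr1:153218922-153332786. Nid1 is at chr13:13437551-13512269 and Nid2 at chr14:19751265-19811787. Lama2, Nid1 and Nid2 share 631, 143 and 437 exon bases with a gene on the opposite strand, and none of the 9 shares exon bases with another gene on its own strand. The libraries keep strand, but the strand setting of the counting is not given in the sources used here.

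Lama2 and Lamb2 were higher and Lama5 lower in the ES-LBs than in limb buds, as described below, and the stretches before their starts are shown side by side. These genes were thus chosen by their values, and in the heart all of them were higher. Each is the 120 bases that lie 131 to 250 bases before the RefSeq start on GRCm38.p6, written 5′ to 3′ on the gene's strand. The RefSeq starts of Lama2 and Lamb2 lie inside the GENCODE spans given above, downstream of where those spans begin on their strands. For Lama2 the stretch precedes the RefSeq start only, and for Lamb2 it also ends just before the GENCODE start. For Lama5 the RefSeq and GENCODE starts are the same, so the stretches lie at unlike distances from the GENCODE starts. Placed by the RefSeq start, the stretch holds no annotated exon for any of the 5 members with an entry (Lama2, Lama5, Lamb1, Lamb2 and Nid1). Capitals mark matches, on either strand, to the GC box (GGGCGG), the CAAT motif (CCAAT) or the TATA motif (TATAAA).
Lama2: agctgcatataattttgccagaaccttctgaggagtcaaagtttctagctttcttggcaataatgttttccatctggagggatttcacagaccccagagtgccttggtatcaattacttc
Lamb2: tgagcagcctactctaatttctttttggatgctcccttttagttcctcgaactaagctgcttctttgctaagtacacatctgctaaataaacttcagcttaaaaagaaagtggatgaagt
Lama5: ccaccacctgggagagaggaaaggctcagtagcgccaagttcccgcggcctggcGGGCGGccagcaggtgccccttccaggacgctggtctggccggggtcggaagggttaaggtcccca

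The Lama2 stretch (chr10:27617073-27617192, minus strand) and the Lamb2 stretch (chr9:108479612-108479731, plus strand) are 41.7% and 37.5% G and C, and the Lama5 stretch (chr2:180225990-180226109, minus strand) is 69.2%, where the median of 32851 such stretches is 50.8%. Neither of the first pair holds any of the 3 motifs, and Lama5 holds 1 GGGCGG. Of all stretches, 12.8% hold GGGCGG, 16.2% CCAAT and 6.04% TATAAA. These counts describe letters in this window only.

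Against the early forelimb buds, the sorted ES-FLBs had far more Lama2 and Lamb2 RNA and far less Lama5 and Nid2 RNA, while Lama1, Lamb1 and Nid1 lay within 1.3-fold. All 9 genes passed the test (limma, adjusted p below 0.05), 4 higher and 5 lower, where 76.7% of all genes tested passed (35.3% higher and 41.4% lower), and 4 passed with at least a 2-fold change (28.8% of all genes). The median log2 change of the 9 was −0.24 and that of all genes −0.05. In ES-HLBs against early hindlimb buds, 6 passed, 4 higher and 2 lower (75.2% of all genes, 34.8% higher and 40.5% lower), and Lama2, Lamb2 and Lama5 again changed by at least 2-fold (25.6%). Most genes passed in these broad comparisons, so the counts say little of the 9, and the sizes and directions of the single genes are given instead. Without replicate 3 of the early FLBs, 7 of the 9 passed in the forelimb type.

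Lama2, the alpha chain of muscle and peripheral nerve basement membranes, was low in early limb buds. It was at 2.02, 1.25 and 2.85 CPM in the early FLBs and at 4.80, 2.55 and 2.15 CPM in the early HLBs. In ES-FLBs it was at 36.6, 36.0 and 35.7 CPM and in ES-HLBs at 36.7, 39.3 and 40.6 CPM. Every ES-LB library was above every embryonic limb bud library. On the log2(CPM + 0.5) scale, which understates changes of low genes, the rise was 3.90 ± 0.22 (SE, adjusted p = 4.9e-14) for the forelimb type and 3.49 ± 0.22 (5.3e-13) for the hindlimb type. The 6 markers of myogenic precursors, whose lineage is known for this chain, summed to 2.94 to 5.57 CPM in ES-LBs and to 9.501 to 21.79 CPM in the early limb buds.

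Lama5, the alpha chain of most epithelial basement membranes after early development, had the opposite pattern. Early FLBs had 139.8, 137.7 and 163.8 CPM and early HLBs 109.0, 126.7 and 114.3 CPM. ES-FLBs had 23.1, 19.4 and 24.5 CPM and ES-HLBs 51.5, 52.5 and 45.9 CPM. The groups did not overlap, and ES-FLBs were the lowest of all 9 groups. Lama5 fell by 2.69 ± 0.08 (adjusted p = 7.9e-23) and by 1.21 ± 0.08 (2.6e-14) on the log2 scale. Of the 10 markers of surface ectoderm and epithelium, 8 were lower and 1 higher in ES-FLBs, with a median log2 change of −1.86, and 6 were lower and 1 higher in ES-HLBs, with a median of −0.83, and their part in the change of Lama5 was not tested.

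Lama4, the alpha chain of vessel and mesenchymal basement membranes, rose modestly. It went from 42.3, 37.6 and 32.2 CPM in early FLBs to 62.7, 57.1 and 59.0 CPM in ES-FLBs, and from 57.3, 46.2 and 53.0 CPM in early HLBs to 78.2, 77.8 and 77.9 CPM in ES-HLBs. Neither pair overlapped, and the log2 changes were 0.67 ± 0.08 (adjusted p = 2.1e-08) and 0.58 ± 0.08 (3.5e-07). The markers of endothelium, which is known for this chain, moved the other way: all 10 were lower in both ES-LB types, with median log2 changes of −3.44 and −3.11. Lama1, the alpha chain of the first basement membranes of the embryo, was 49.0 ± 3.2 CPM (SD, n = 3) in ES-FLBs against 59.8 ± 7.3 CPM, and 34.2 ± 1.0 against 43.7 ± 7.4 CPM in the hindlimb type. Its log2 changes of −0.28 ± 0.10 (adjusted p = 0.011) and −0.34 ± 0.10 (0.0026) depended on the scaling. With CPM as deposited they were 0.03 (adjusted p = 0.78) and −0.09 (0.42), and with a median of ratios scaling the first was −0.17 (0.11). Without replicate 3 of the early FLBs the first was −0.18 (adjusted p = 0.11), and without replicate 1 of the ES-FLBs −0.24 (0.053).

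Among the beta and gamma chains, Lamb2 rose in both types, and Lamb1 and Lamc1, the partners of most embryonic trimers, differed by at most 0.72 on the log2 scale. Lamb2, known from the glomerulus and the neuromuscular junction, was at 26.4, 24.9 and 29.6 CPM in early FLBs and at 27.8, 26.3 and 23.7 CPM in early HLBs. It was at 107.9, 91.3 and 99.5 CPM in ES-FLBs and at 99.0, 88.5 and 94.5 CPM in ES-HLBs. The groups were well apart, with log2 changes of 1.86 ± 0.08 (adjusted p = 1.8e-19) and 1.84 ± 0.08 (4.5e-19), and every ES-LB library was also above every heart library.

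Lamb1 was 190.7 ± 13.3 CPM in ES-FLBs against 224.9 ± 6.6 CPM in early FLBs, a log2 change of −0.24 ± 0.05 (adjusted p = 7.6e-05) that was 0.07 (0.18) with CPM as deposited. In the hindlimb type it was 210.8 ± 6.2 against 196.2 ± 9.8 CPM, a difference of 0.10 ± 0.05 (adjusted p = 0.061) that passed without replicate 2 of the early HLBs (0.14, 0.019), without replicate 2 of the ES-HLBs (0.13, 0.041) and with CPM as deposited (0.36, 7.3e-08). Lamc1 was at 213.2, 202.5 and 205.0 CPM in ES-FLBs and at 328.0, 340.1 and 359.1 CPM in early FLBs, with no overlap, and was lower by a log2 change of −0.72 ± 0.06 (adjusted p = 2.9e-12), or −0.41 with CPM as deposited. In ES-HLBs Lamc1 overlapped with the early HLBs (219.3 ± 7.2 against 240.9 ± 28.7 CPM), and its difference of −0.13 ± 0.06 (adjusted p = 0.057) was 0.13 (0.044) with CPM as deposited and −0.23 (3.4e-04) without replicate 1 of the early HLBs.

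Nid1 and Nid2, the nidogens, were set apart by their values in ES-FLBs. Nid2 was at 73.0, 75.2 and 73.8 CPM in ES-FLBs, below every library of the other 8 groups, and at 166.9, 155.4 and 157.2 CPM in early FLBs, a log2 change of −1.10 ± 0.05 (adjusted p = 1.4e-18). In ES-HLBs it was at 158.1, 167.5 and 163.7 CPM, above the 132.4, 111.3 and 121.9 CPM of early HLBs (0.42 ± 0.05, 1.7e-08). Nid1 was 249.0 ± 5.8 CPM in ES-FLBs and 219.5 ± 22.2 CPM in early FLBs, with 1 early library inside the ES-FLB range, and its change of 0.19 ± 0.07 (adjusted p = 0.011) was 0.12 (0.12) without replicate 3 of the early FLBs. In the hindlimb type Nid1 differed by 0.07 ± 0.07 (adjusted p = 0.33), and with CPM as deposited by 0.32 (5.9e-05).

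These changes are relative to the scaling, which set the median change of all genes near 0. With CPM as deposited that median moved up by 0.27 in the forelimb comparison and by 0.23 in the hindlimb one, and the share of calls that were higher went from 46.1% to 62.7% and from 46.2% to 61.3%. Lama2, Lama4 and Lamb2 stayed higher and Lama5 lower in both comparisons with CPM as deposited, as did Nid2 in each of its directions.

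**Figure D2:**
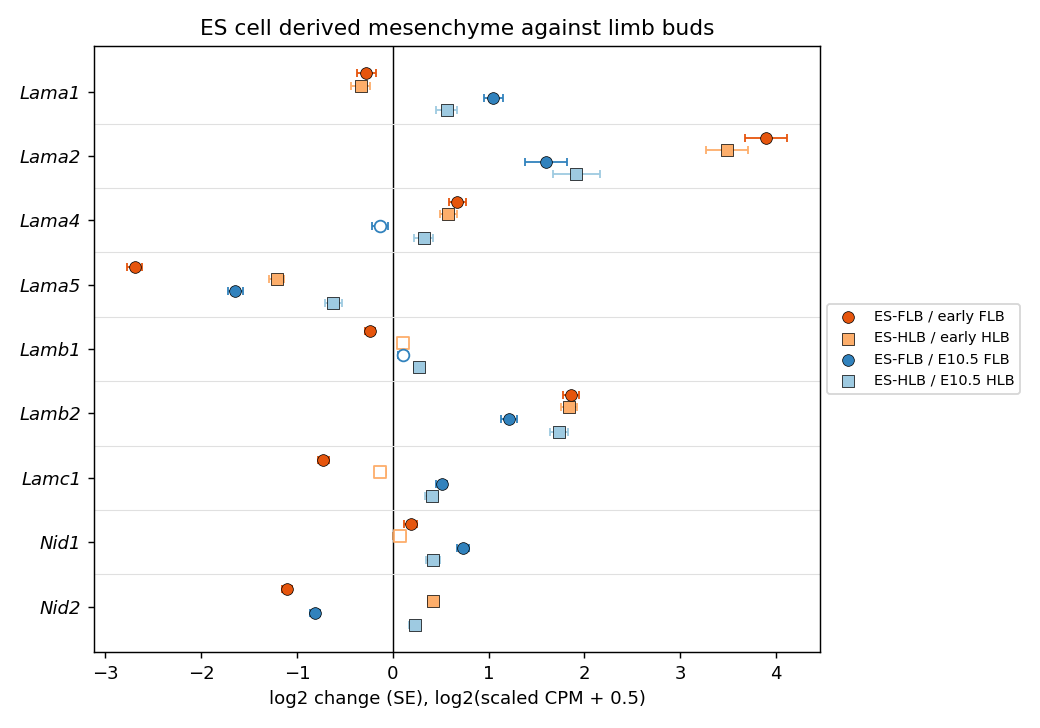
Log2 change of each gene in ES-LBs against limb buds of the same type, with its SE, on the log2(scaled CPM + 0.5) scale (horizontal axis). Circles are forelimb and squares hindlimb comparisons, orange against early and blue against E10.5 limb buds, and open symbols did not pass an adjusted p of 0.05. Lama2 and Lamb2 lie right of 0 and Lama5 left of 0 in all 4 comparisons, and Nid2 lies on opposite sides in the forelimb and hindlimb types.

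Ratios of family members within a library do not depend on the scaling between libraries. Lamb2 was at 0.52 ± 0.04 (SD, n = 3) of the Lamb1 level in ES-FLBs and at 0.45 ± 0.01 in ES-HLBs, against 0.12 ± 0.01 in early FLBs and 0.13 ± 0.01 in early HLBs. Over both limb types the ratio was 3.84-fold higher in ES-LBs (log2 difference 1.94), higher in 6 of 6 libraries than in any of the 6 early ones (exact permutation test within limb type, two-sided, p = 0.0050, the smallest its 400 arrangements allow, and 0.0067 adjusted over 4 ratios). Lama5 relative to Lama1 went from 2.47 ± 0.10 and 2.70 ± 0.30 in early FLBs and HLBs to 0.46 ± 0.05 and 1.47 ± 0.13 in ES-FLBs and ES-HLBs (log2 difference −1.66, exact permutation p = 0.0050, adjusted 0.0067).

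Lama4 relative to Lama1 was higher in ES-LBs than in early limb buds by 0.94 on the log2 scale (exact permutation p = 0.0050, adjusted 0.0067), but lower by 0.73 than in E10.5 limb buds (exact permutation p = 0.0050, adjusted 0.0067, 200 arrangements). Nid2 relative to Nid1 differed by −0.47 over both types (exact permutation p = 0.10, adjusted 0.10). This mean covers a fall of 1.30 in the forelimb type, from 0.73 ± 0.05 to 0.30 ± 0.01, and a rise of 0.35 in the hindlimb type, from 0.60 ± 0.06 to 0.77 ± 0.05, and neither was tested alone. Against E10.5 limb buds the Nid2 to Nid1 difference was −0.87 over both types (exact permutation p = 0.010, adjusted 0.010). That mean covers −1.55 in the forelimb type and only −0.19 in the hindlimb type, and neither was tested alone.

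**Figure D3:**
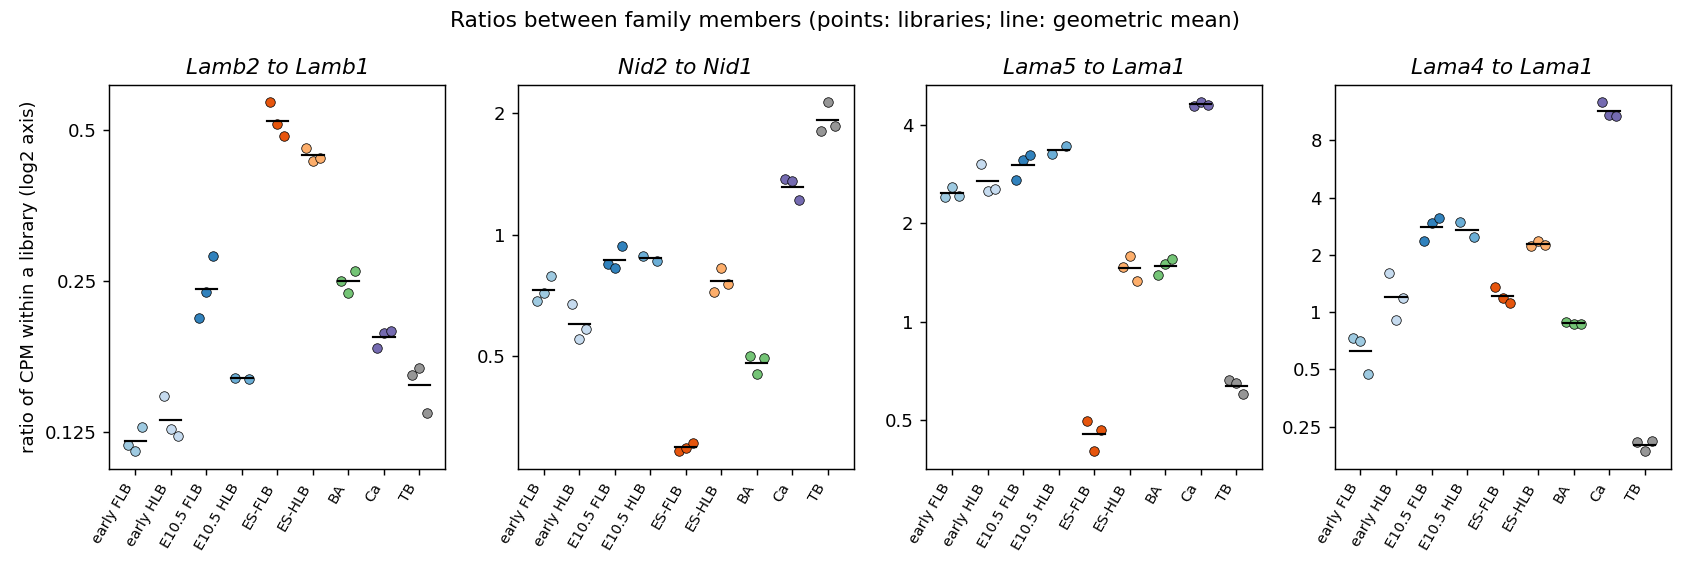
Ratio of the CPM of 2 family members within each library, on a log2 axis, in the 9 groups. Points are libraries and lines are geometric means. The 6 ES-LB libraries have the highest Lamb2 to Lamb1 ratios (0.43 to 0.57), and the 3 ES-FLB libraries the lowest Nid2 to Nid1 (0.29 to 0.30) and Lama5 to Lama1 ratios (0.40 to 0.50).

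Levels of different genes are compared here only per kb of the longest transcript. Of the summed alpha chain level per kb, Lama5 made up 50.3% ± 2.5 (SD, n = 3) in early FLBs and 43.0% ± 2.4 in early HLBs, and 9.39% ± 0.82 in ES-FLBs and 17.5% ± 1.1 in ES-HLBs. Lama2 made up 0.817% ± 0.277 and 1.39% ± 0.65 in the early limb buds and 18.0% ± 0.6 and 16.1% ± 0.8 in the ES-LBs. Lama4 was the largest share in both ES-LB types (47.3% ± 1.5 and 51.5% ± 0.5), in the E10.5 limb buds (51.8% ± 1.4 and 49.8% ± 3.3) and in the heart (74.9% ± 1.7). Lama1 was the largest in the tail bud, at 52.1% ± 0.9. The BA was the most even, with Lama4 at 35.0%, Lama5 at 31.4% and Lama1 at 25.4%.

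Of the summed beta chain level per kb, Lamb2 was 34.8% ± 1.8 in ES-FLBs and 31.3% ± 0.7 in ES-HLBs, and between 10.8% and 20.3% in the 7 embryonic groups. Lamc1 made up 82.9% to 95% of the gamma chain level in all 9 groups. The summed alpha chain level, which depends on the scaling, was 20.85 ± 0.67 and 25.04 ± 0.18 scaled CPM per kb in ES-FLBs and ES-HLBs. It was 25.7 ± 1.5 and 23.8 ± 0.5 in early FLBs and HLBs. The makeup of the alpha chains thus differed much more than their sum. For the gamma chains the sum was 29.3 ± 1.1 in ES-FLBs against 47.6 ± 2.3 in early FLBs, and 31.2 ± 0.7 against 33.3 ± 3.7 in the hindlimb type.

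**Figure D4:**
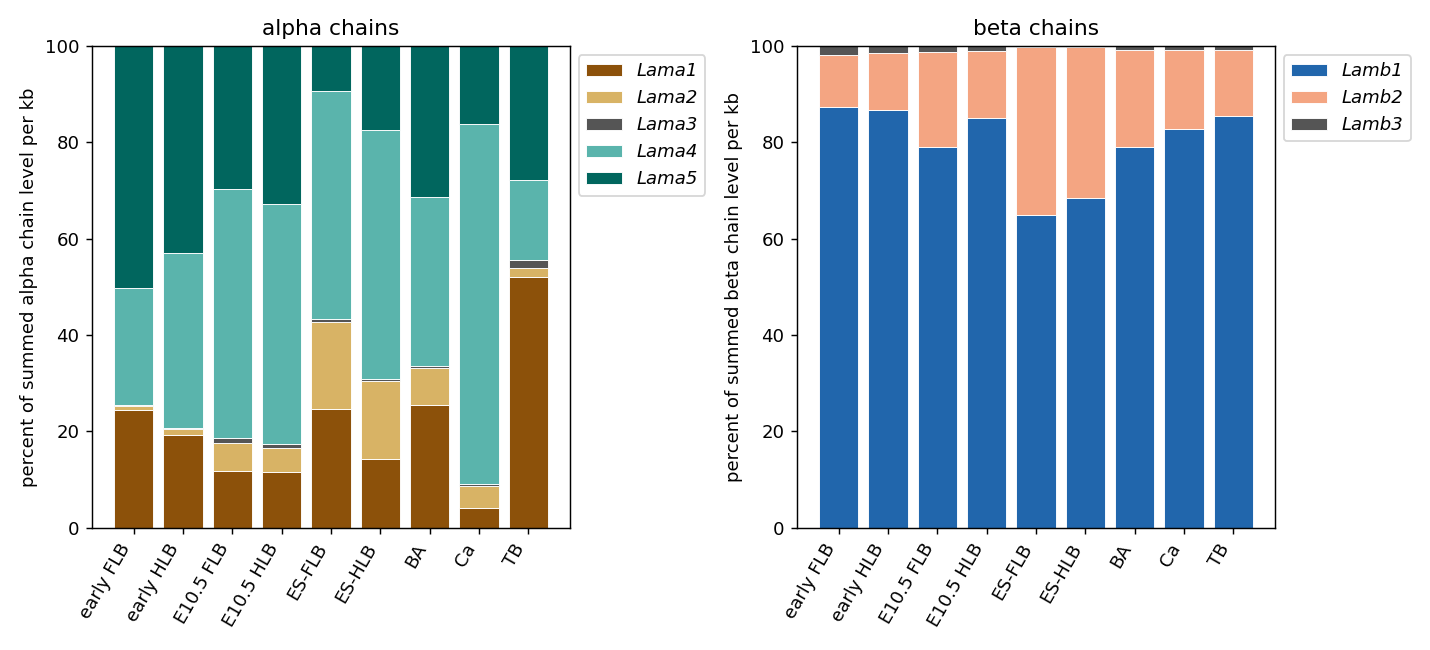
Mean share (percent, vertical axes from 0 to 100) of each chain in the summed level per kb of the alpha chains (left) and beta chains (right) in the 9 groups, n = 3 libraries (2 for E10.5 HLB). Lama5 takes 50.3% in early FLB and 9.39% in ES-FLB, Lama4 74.9% in the heart, Lama1 52.1% in the tail bud, and Lamb2 34.8% in ES-FLB.

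Between early and E10.5 forelimb buds, Lama2, Lama4 and Lamb2 rose and the other 6 genes fell, so that all 9 passed (60.4% of all genes, 24.3% higher and 36.1% lower). Lama2 rose from 2.04 ± 0.80 to 11.6 ± 1.3 CPM (log2 change 2.30 ± 0.22, adjusted p = 3.0e-09). Lamc1 fell from 342.4 ± 15.7 to 145.3 ± 4.3 CPM, by 1.23 ± 0.06 (6.0e-17), Lama1 from 59.8 ± 7.3 to 23.5 ± 3.0 CPM, by 1.33 ± 0.10 (6.8e-13), and Lama5 from 147.1 ± 14.5 to 70.5 ± 2.9 CPM, by 1.05 ± 0.08 (2.3e-12). None of these groups overlapped. Markers of other cell types moved too: 4 of 6 of myogenic precursors were higher (median log2 change 2.12), 3 of 4 tested of neural crest and glia were higher (0.94), and 5 of 10 each of surface ectoderm and endothelium were lower, with 3 and 2 higher (−0.49 and −0.38), and their part was not tested. The falls of Lamb1 (−0.35 ± 0.05) and Nid2 (−0.30 ± 0.05) did not pass with CPM as deposited (−0.11, adjusted p = 0.053, and −0.06, 0.41), which moved the median of all genes by 0.21.

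In hindlimb buds 8 of 9 passed between the stages, 3 higher and 5 lower (31.5% of all genes, 1517 of them higher, and 21% lower), but 5 without replicate 2 of the early HLBs, when Lama4, Lamb1 and Nid2 no longer passed. Lama2 rose by 1.58 ± 0.25 (adjusted p = 2.7e-05), Lama1 fell by 0.90 ± 0.11 (2.3e-07), Lama5 by 0.59 ± 0.09 (8.2e-06) and Lamc1 by 0.54 ± 0.07 (4.0e-07). Lama4 (0.26 ± 0.09, adjusted p = 0.035), Lamb1 (−0.17 ± 0.06, 0.020) and Nid2 (0.19 ± 0.06, 0.013) were less firm. Lama4 also failed without replicate 3 of the early HLBs (0.28, 0.056) or replicate 1 of the E10.5 HLBs (0.16, 0.36), Lamb1 without replicate 1 (−0.16, 0.11) or 3 (−0.18, 0.071) of the E10.5 HLBs and with CPM as deposited (−0.07, 0.37), and Nid2 without replicate 3 of the E10.5 HLBs (0.15, 0.15). In the hindlimb buds 1 of the 6 markers of myogenic precursors was higher (median 0.56), and 3 of 10 each of surface ectoderm and endothelium were lower, with 1 and 0 higher. The change from early to E10.5 differed between the limb types for 6 of the 9 genes, by an interaction term that 22.2% of all genes passed. Lamc1 fell less in hindlimb buds (difference 0.70 ± 0.09, adjusted p = 2.2e-06), and the hindlimb minus forelimb difference was also above 0 for Lama1 (0.43), Lama5 (0.46) and Nid2 (0.49) and below 0 for Lama4 (−0.55) and Lamb2 (−0.55). The labels give both early groups as E10.0 while the study's text stages them differently, so limb type and age cannot be told apart in these differences.

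Set against E10.5 limb buds, the ES-LBs again had more Lama2 and Lamb2 and less Lama5, and they also had more Lama1. These comparisons share the ES-LB libraries with those against early limb buds. ES-FLBs had 5 genes higher and 2 lower (68.6% of all genes passed, 32.9% higher and 35.7% lower) and ES-HLBs 8 higher and 1 lower (68.5% passed, 32.9% and 35.6%). Lama1 was 49.0 ± 3.2 CPM in ES-FLBs against 23.5 ± 3.0 CPM in E10.5 FLBs (log2 change 1.05 ± 0.10, adjusted p = 7.9e-11), and 34.2 ± 1.0 against 23.0 ± 0.6 CPM (n = 2) in the hindlimb type (0.56 ± 0.11, 3.7e-05). Lama2 was higher by 1.60 ± 0.22 (7.5e-07) and 1.91 ± 0.25 (2.6e-07), Lamb2 by 1.21 ± 0.08 (4.1e-14) and 1.74 ± 0.09 (1.1e-16), and Lama5 lower with −1.64 ± 0.08 (5.6e-17) and −0.62 ± 0.09 (5.4e-07). Lamc1 and Nid1 were higher in both types, by 0.51 ± 0.06 and 0.73 ± 0.07 in the forelimb type and by 0.41 ± 0.07 and 0.42 ± 0.07 in the hindlimb type.

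Lama4 (−0.13 ± 0.08, adjusted p = 0.16) and Lamb1 (0.11 ± 0.05, 0.056) did not pass between ES-FLBs and E10.5 FLBs, and Lamb1 did pass there without replicate 1 of the E10.5 FLBs (0.14, 0.030) or replicate 2 of the ES-FLBs (0.16, 0.011). In the hindlimb type Lama4 was higher by 0.32 ± 0.09 (adjusted p = 0.0037), but by 0.22 (0.11) without replicate 3 of the E10.5 HLBs.

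Between ES-HLBs and ES-FLBs, Lama5 and Nid2 were each more than 2-fold higher in ES-HLBs. Of the 9 genes, 4 were higher and 2 lower (19.7% of all genes passed, 10.8% higher and 8.89% lower, and 2.67% were higher by at least 2-fold). Lama5 was at 51.5, 52.5 and 45.9 CPM in ES-HLBs and at 23.1, 19.4 and 24.5 CPM in ES-FLBs (1.15 ± 0.08, adjusted p = 5.8e-12). Nid2 differed by 1.13 ± 0.05 (2.0e-16), with values given above, and neither gene overlapped between the types. Lama4 was higher by 0.39 ± 0.08 (0.0012) and Lama1 lower with −0.51 ± 0.10 (2.1e-04), again without overlap.

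The smaller differences were less firm. Lamb1 was higher by 0.15 ± 0.05 (adjusted p = 0.036) but did not pass without replicate 1 (0.14, 0.085) or 2 (0.10, 0.25) of the ES-FLBs or replicate 1 (0.13, 0.12) or 3 (0.13, 0.11) of the ES-HLBs. Nid1 was lower with −0.23 ± 0.07 (0.012), and did not pass without replicate 2 of the ES-HLBs (−0.19, 0.073). With no filter on low genes neither passed (adjusted p = 0.071 and 0.054). Lama2 (0.10 ± 0.22, adjusted p = 0.81), Lamb2 (−0.08 ± 0.08, 0.57) and Lamc1 (0.08 ± 0.06, 0.39) did not pass. Of the 10 markers of surface ectoderm and epithelium, 8 were higher and 0 lower in ES-HLBs (median log2 change 0.80), and of the 10 of endothelium 8 and 0 (0.46). The 6 markers of erythroid cells moved most, with 5 higher and 0 lower (3.15, sums of 88.0 to 165.2 CPM against 5.37 to 8.29 CPM). Of the 6 of tail bud, 4 were higher and 0 lower (0.88). The part of these lists in the differences was not tested.

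The same difference was then set against that of the embryo. In early limb buds, Lama1, Lama5, Lamb1, Lamc1 and Nid2 were lower in HLBs than in FLBs and Lama4 was higher (19% of all genes passed, 10.7% lower and 8.34% higher). Lama5 was lower there with −0.33 ± 0.08 (adjusted p = 0.0034), Nid2 with −0.39 ± 0.05 (1.5e-06), Lamb1 with −0.20 ± 0.05 (0.0045) and Lamc1 with −0.51 ± 0.06 (1.8e-07). Lama1 was lower with −0.45 ± 0.10, at an adjusted p of 0.063 where only these groups were fitted. Lama2 was at 0.51 ± 0.22 (0.11), and passed without replicate 3 of the early FLBs (0.74, 0.023) or replicate 3 of the early HLBs (0.71, 0.033).

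The interaction term, the hindlimb to forelimb difference in culture minus that in early limb buds, passed for these 4 genes and no other of the 9, where 20% of all genes passed (11.4% higher and 8.61% lower). It was 1.53 ± 0.08 for Nid2 (adjusted p = 8.7e-16), 1.48 ± 0.11 for Lama5 (1.1e-10), 0.60 ± 0.09 for Lamc1 (5.1e-06) and 0.34 ± 0.07 for Lamb1 (5.8e-04). These 4 also passed with each replicate left out in turn and with CPM as deposited. Since the early FLBs and HLBs may differ in stage, the term was also computed with E10.5 limb buds in place of early ones, an alternative chosen after seeing the data, and 16.5% of all genes then passed. Nid2 (1.04 ± 0.08, adjusted p = 6.1e-11) and Lama5 (1.02 ± 0.12, 6.5e-07) passed again in the same direction. Lamb1 (0.17 ± 0.08, 0.13) and Lamc1 (−0.10 ± 0.09, 0.50) did not pass, so their difference held against early limb buds and not against E10.5 ones. Lamb2 (0.53 ± 0.12, 0.0035), Lama4 (0.45 ± 0.13, 0.014), Nid1 (−0.31 ± 0.10, 0.027) and Lama1 (−0.49 ± 0.15, 0.021) passed there and not against early limb buds. At E10.5, only Lamb2 differed between the limb types (1 of 9, where 22.5% of all genes passed, 12.7% higher and 9.79% lower): it was at 27.66 and 27.99 CPM in HLBs and at 38.9, 41.9 and 47.5 CPM in FLBs (−0.61 ± 0.09, adjusted p = 1.9e-05). Lamc1 was just short of passing there (0.18 ± 0.07, adjusted p = 0.050).

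Among the E10.5 tissues the heart stood out, with 8 of the 9 genes higher than the mean of the other 4 tissues and 7 of them by at least 2-fold (79% of all genes passed, 37.3% higher and 41.7% lower, and 16.4% were higher by 2-fold). Lama4 was at 317.7, 257.5 and 305.7 CPM in the heart and at or below 68.7 CPM in every other E10.5 library (2.52 ± 0.07, adjusted p = 1.2e-24). Lamc1 was 580.6 ± 36.9 CPM (1.74 ± 0.05, 2.1e-24), Nid2 400.3 ± 22.1 CPM (1.60 ± 0.04, 1.4e-25) and Lamb1 401.0 ± 25.1 CPM (1.08 ± 0.04, 1.0e-21), each above every other library of the 26. Nid1 (1.08 ± 0.05), Lamb2 (1.05 ± 0.07) and Lama2 (1.39 ± 0.18) were also at least 2-fold higher, Lama5 was higher by 0.51 ± 0.07, and Lama1 was lower than the mean of the others with −0.87 ± 0.08 (1.4e-11). For Lama1 the heart, at 25.7 ± 2.4 CPM, overlapped with the E10.5 FLBs (23.5 ± 3.0 CPM). It lay just above the E10.5 HLBs (23.0 ± 0.6 CPM), with 23.8 CPM at its lowest and 23.4 CPM at their highest. The branchial arch (54.8 ± 1.6 CPM) and tail bud (167.7 ± 6.1 CPM) were above the heart. All 7 markers of cardiomyocytes were higher (12130 to 14275 CPM in the heart, at most 23.0 CPM in the other E10.5 tissues). So were all 6 of erythroid cells (23902 to 34582 CPM, at most 6738 CPM). Markers of endothelium (1146 to 1227 CPM, at most 516 CPM) and epicardium (315 to 357 CPM, at most 143 CPM) also moved with the heart. Those of endoderm, a list that includes Gata4, did too (491 to 1930 CPM, at most 117 CPM). The part of these lists was not tested.

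The tail bud was marked by Lama1, at 160.9, 169.9 and 172.4 CPM, where no library of the other 8 groups exceeded 67.7 CPM (2.49 ± 0.08 against the other 4 tissues, adjusted p = 1.0e-21). There 4 genes were higher and 4 lower (51.3% of all genes passed, 25.1% and 26.2%), with Lama2 (−1.41 ± 0.18), Lama4 (−1.36 ± 0.07) and Nid1 (−1.03 ± 0.05) at least 2-fold lower, as were 3.82% of all genes. Its small rise of Lamc1 (0.15 ± 0.05, adjusted p = 0.0099) did not pass without replicate 3 of the tail bud (0.11, 0.11). Markers of neural tube (5 of 6 higher, median log2 difference 4.88), myogenic precursors (4 higher and 2 lower of 6, 2.51) and neural crest and glia (3 of 4 tested higher, 2.00) moved with the tail bud, and their part was not tested.

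In the branchial arch 3 genes were higher and 5 lower (51.4% of all genes passed, 24.9% and 26.6%), and Nid2 was the one that differed by at least 2-fold, with −1.06 ± 0.04 (adjusted p = 1.1e-19), where 3.86% of all genes were lower by 2-fold. Lama5 there (−0.17 ± 0.07, 0.032) did not pass without replicate 1 of the branchial arch (−0.10, 0.27) or replicate 3 of the E10.5 HLBs (−0.15, 0.066), and Lama2 (0.53 ± 0.18, 0.015) not without replicate 2 of the branchial arch (0.46, 0.083). Of the 10 markers of endothelium 9 were lower in the branchial arch (median −0.55) and of the 10 of surface ectoderm 7 were higher (0.75), and their part was not tested. The 3 tissue contrasts share libraries, so they are not independent.

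**Figure D5:**
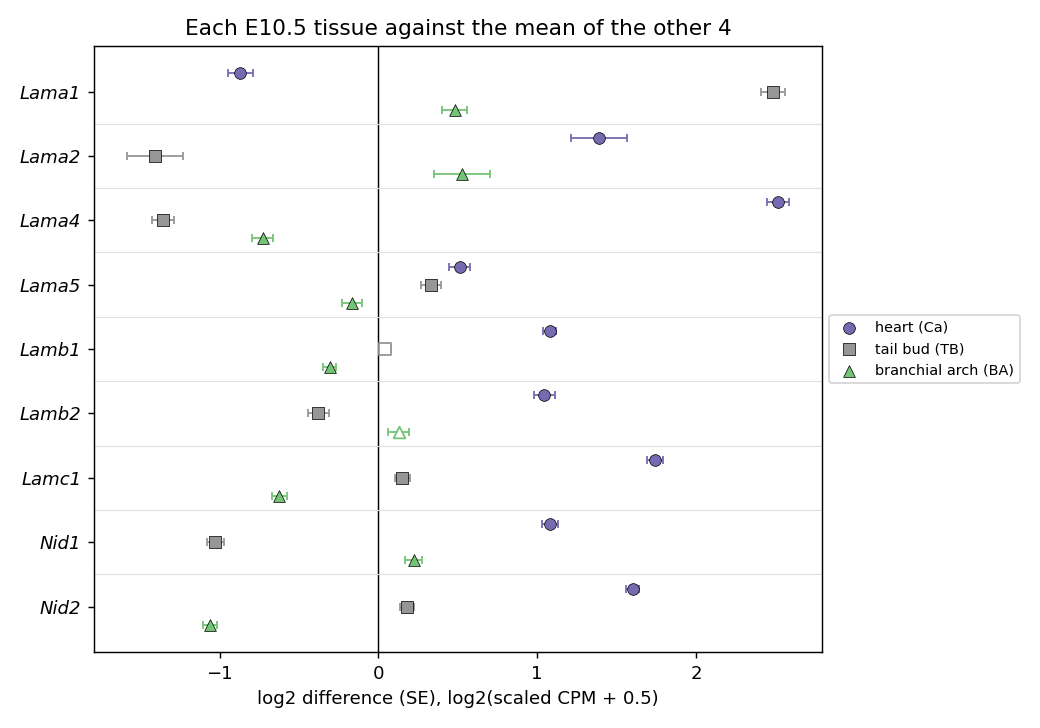
Log2 difference, with its SE, of each gene in the heart, tail bud and branchial arch at E10.5 from the mean of the other 4 E10.5 tissues (horizontal axis, log2(scaled CPM + 0.5) scale). Open symbols did not pass an adjusted p of 0.05. Heart values lie right of 0 for 8 genes, with Lama4 at 2.52, and the tail bud is far right for Lama1, at 2.49.

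Ordered by level over the 9 groups, 31 of the 72 neighbouring steps of the 9 genes passed the test. The neighbours were chosen by the same values that were then tested. No share of passing steps over all genes was computed, so the count and the order serve as a description only. For Lama1, the tail bud was above the rest and early FLBs, BA, ES-FLBs and early HLBs followed without steps that passed. For Lama2, ES-HLBs, ES-FLBs and heart headed the order with no passing step among them (adjusted p = 0.81 and 0.11), the step from the heart to the branchial arch passed (0.69 ± 0.22, 0.0070), and early HLBs and FLBs closed it. For Lamb2, ES-FLBs and ES-HLBs led without a passing step between them, above the heart (0.28 ± 0.08, adjusted p = 0.0030). For Lamb1 the only step that passed was that from the heart to the tail bud (0.83 ± 0.05), and from there the order ran without a passing step through all other groups, from 225.1 to 174.1 CPM. Nid2 had the most passing steps, 5 of 8, from the heart at 400.3 CPM to ES-FLBs at 74.01 CPM.

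Across the 9 group means, as a description with no test, Lamb1 and Lamc1 ran most nearly in parallel (Pearson's r = 0.93), then Lama2 and Lamb2 (0.92) and Lamb1 and Nid2 (0.87), while Lama2 and Lama5 ran opposite (−0.72). The points share depth and scaling by group, and the heart is the highest of them for 5 of the 9 genes. Among 10137 genes at 16 CPM or more in their highest group, those most like the members included Vamp2 (r = 0.99) and Pld3 (0.99) for Lamb2, Srr (0.99) for Lama2, Nsmaf (0.98) and Pim1 (0.98) for Lama5, Gpx3 (0.99) and Mef2a (0.99) for Lamb1, and Hopx (0.98) and Srf (0.98) for Lamc1. For Lama4 they were Vps28 (0.99) and Sirt3 (0.98), for Lama1 D8Ertd82e (0.97) and Sh3rf1 (0.95), for Nid1 Kctd10 (0.98) and Pcdh7 (0.94), and for Nid2 Pgm2 (0.95) and Tcea3 (0.95). They were picked as the highest of 10137 correlations over 9 points, a choice that favours high r, so no shared regulation can be read from them.

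Lamc3, a further gamma chain, was 6.86 ± 0.32 CPM in ES-FLBs and 6.70 ± 0.65 CPM in ES-HLBs, against 0.55 and 0.25 CPM in early FLBs and HLBs (2.85 ± 0.32, adjusted p = 2.1e-09, and 3.29 ± 0.32, 1.1e-10). Lamb3, a beta chain of epithelial trimers, was at 0.73 CPM in ES-FLBs against 4.31 CPM in early FLBs (−1.96 ± 0.26, adjusted p = 5.6e-08), and it was again lower in ES-HLBs (−1.60 ± 0.26, 2.3e-06). Lama3 was at or below 1.42 CPM in all 4 groups and was higher in ES-LBs by 0.70 ± 0.27 (0.020) and 0.96 ± 0.27 (0.0019).

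Of 9 genes of laminin receptors, 6 were lower and 2 higher in ES-FLBs (median log2 change −1.10), where 41.4% of all genes were lower and 35.3% higher. In ES-HLBs 7 were lower and 2 higher (median −1.08), where 40.5% of all genes were lower and 34.8% higher. Itga3, an integrin chain that pairs with Itgb1 and is typical of epithelia, went from 92.6 to 5.23 CPM and from 75.9 to 4.97 CPM (−4.02 ± 0.10, adjusted p = 5.6e-25, and −3.81 ± 0.10, 5.7e-24). Bcam, a receptor for the Lama5 chain, went from 124.0 to 9.98 CPM and from 98.4 to 8.30 CPM (−3.58 ± 0.13 and −3.49 ± 0.13). Itga6, a chain of laminin-binding integrins, was lower with −1.80 ± 0.07 and −1.47 ± 0.07, and Itga2 with −1.57 ± 0.24 and −1.78 ± 0.24, the last at levels of at most 3.46 CPM. The markers of epithelium and endothelium given above moved with these receptors, and their part was not tested.

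Of 11 tested genes of dystroglycan glycosylation, which builds the sugar chain that laminins bind, 2 were higher and 8 lower in ES-FLBs (median −0.30), and 2 higher and 7 lower in ES-HLBs (−0.35), beside the same 41.4% and 40.5% of all genes that were lower. Large2, an enzyme that extends this chain, was lower in both types (−2.46 ± 0.21 and −1.58 ± 0.21).

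The collagen IV chains form the other network of the basement membrane. In ES-FLBs all 4 tested chains were lower than in early FLBs, where 41.4% of all genes were lower. In ES-HLBs 2 were higher and 2 did not pass, where 34.8% of all genes were higher. Col4a6 was at 10.97 against 37.2 CPM in the forelimb type (−1.69 ± 0.18, adjusted p = 4.9e-09) and at 30.8 against 20.1 CPM in the hindlimb type (0.64 ± 0.18, 0.0026), and Col4a5 moved likewise (−0.58 ± 0.14 and 1.07 ± 0.14). Col4a2 was lower in the forelimb type (−0.32 ± 0.05) and at −0.05 ± 0.05 (0.32) in the hindlimb type. All 4 chains passed the interaction term against early limb buds, where 20% of all genes passed (11.4% higher). Lama5, Lamb1, Lamc1 and Nid2 passed it in the same direction. Against E10.5 limb buds Lamb1 and Lamc1 did not pass, and no result for the collagen chains is given there.

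Of 16 other basement membrane proteins, 8 were higher and 7 lower in ES-FLBs (median 0.20). In ES-HLBs 8 were higher and 6 lower (0.35). Of all genes, 76.7% passed in the first comparison (35.3% higher and 41.4% lower) and 75.2% in the second (34.8% and 40.5%). At 2-fold or more, 3 were higher and 5 lower in ES-FLBs and 4 and 5 in ES-HLBs, where 28.8% and 25.6% of all genes passed. Tinagl1 (−3.44 ± 0.18) and Col18a1 (−2.71 ± 0.07), the collagen that carries endostatin, were the most reduced in ES-FLBs, and Col15a1, its relative of vessel and muscle basement membranes, was the most reduced in ES-HLBs (−3.25 ± 0.30). Frem1, a protein at the border of epidermis and mesenchyme that is made in mesenchyme, rose from 51.4 to 269.6 CPM and from 72.9 to 311.6 CPM (2.38 ± 0.07 and 2.09 ± 0.07). Hmcn1 rose from 45.3 to 213.2 CPM and Smoc2 from 1.89 to 44.1 CPM in the hindlimb type (2.22 ± 0.10 and 4.29 ± 0.23), and Smoc2 was at 0.51 ± 0.23 (adjusted p = 0.045) in the forelimb type.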

How the data were processed

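Members and gene lists were chosen with earlier results of these data known. The authors made strand-keeping mRNA libraries, read them as single ends, and deposited 1 table of CPM, which sums to 1000000 in each library. The submitters' processing notes name FastQC 0.11.5, HISAT2 2.0.4, Cuffdiff, Cufflinks 2.1.1, edgeR 3.16.2 and mm10.

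The deposited CPM of 26 libraries were scaled by an unweighted trimmed mean of log ratios (30% of ratios and 5% of levels trimmed at each end). The 14438 genes that reached 1 CPM in 3 libraries entered a single limma fit (version 3.58.1, trend and robust, R 4.3.3) of log2(CPM + 0.5) with a mean for each of 9 groups, with Benjamini-Hochberg adjustment across them. Calls have an adjusted p below 0.05. All 26 libraries share 1 estimate of the spread. Count tests of edgeR or DESeq2 had been listed as alternatives and were not run, as the values are CPM and some are not whole reads.

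Depth came from the spacing of low values: 93.0% to 99.1% of values were within 0.05 reads of a whole number, the lower shares in the early limb buds. Floors of 3 reads cover counting error only, since reads without molecular identifiers are not independent molecules. Shares and levels per kb used the longest GENCODE transcript. Ratios were tested by exact permutation within limb type. All members, all other laminin chains, up to 3 genes of each further list with the largest change past the threshold in each ES-LB comparison with early limb buds, and the 2 genes most like each member are named, except that some genes this rule picks are not reported here. Tests were checked on simulated data. Alternatives were other scalings, filters and pseudocounts, only the groups compared, a replicate block, each replicate left out, and replicate 2 of the E10.5 HLBs kept with its lost values set to missing. Figures were made with Python 3.11.15 and matplotlib 3.10.9.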

Additional observations from a re-analysis of the deposited data

Results flagged for a closer look

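The hindlimb to forelimb difference was not the same in culture as in the early embryo for Lama5 (difference of the log2 differences 1.48), Lamb1 (0.34), Lamc1 (0.60) and Nid2 (1.53), by the interaction term of limma (adjusted p = 1.1e-10, 5.8e-04, 5.1e-06 and 8.7e-16). With E10.5 limb buds in place of early ones, Lama5 and Nid2 passed again and Lamb1 and Lamc1 did not.

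The change from early to E10.5 limb buds differed between hindlimb and forelimb for Lama1 (hindlimb minus forelimb 0.43, adjusted p = 0.034), Lama4 (−0.55, 0.0023), Lama5 (0.46, 0.0066), Lamb2 (−0.55, 0.0017), Lamc1 (0.70, 2.2e-06) and Nid2 (0.49, 4.3e-05), also by an interaction term of limma.

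Replicate 2 of the E10.5 HLBs, which entered no comparison of the report other than an alternative under the processing, had values above its floor of 0.819 CPM for 8 of the 9 genes. Its deposited CPM sum to 1000000 over the chromosomes that remain, so they are not on the scale of the other libraries. They were 36.6 for Lama1, 10.9 for Lama2, 104.3 for Lama4, 108.1 for Lama5, 248.5 for Lamb1, 259.2 for Lamc1, 275.5 for Nid1 and 216.3 for Nid2. Lamb2 is listed at 0 there.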

How the results depend on the processing

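Of the single-gene results under the alternatives, 1979 kept their direction and their side of the threshold, 39 fell short of it, 23 came past it and 20 changed sign. With CPM as deposited, Lama1 (0.03) and Lamb1 (0.0702) in ES-FLBs against early FLBs, Lamc1 in ES-HLBs against early HLBs (0.1255) and Nid1 between E10.5 HLBs and FLBs (−0.0006) changed sign. With 1 replicate left out, values that did not pass also changed sign: Lamb2 between early HLBs and FLBs (−0.1122 to 0.0096), Lama1 (−0.0859 to 0.0739), Lamb1 (−0.0502 to 0.0107) and Lama4 (−0.1678 to 0.0329) between E10.5 HLBs and FLBs, and, in the interaction term, Lama1 (−0.195 to 0.0511), Lama4 (−0.1851 to 0.0093) and Lamb2 (−0.0906 to 0.0366). With E10.5 limb buds as the reference of the interaction, chosen after seeing the data, Lama2 (0.3107), Lama4 (0.4537), Lamb2 (0.5255) and Lamc1 (−0.0997) changed sign, and 6 of the 9 passed in place of 4. The count of members between E10.5 HLBs and FLBs went from 1 to 2, with Lamc1, under a filter of 4 CPM, with only the groups compared, under the replicate block, and with replicate 2 of the E10.5 HLBs kept. Between E10.5 and early HLBs the count was 5 to 8 with 1 replicate left out.

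The Lama4 to Lama1 ratio changed sign against E10.5 limb buds (−0.73). The Nid2 to Nid1 ratio passed there over both limb types (−0.87, adjusted exact permutation p = 0.010), with −1.55 in the forelimb and −0.19 in the hindlimb type. With each replicate left out, the log2 ratio differences ran from 1.91 to 1.98 for Lamb2 to Lamb1, −0.50 to −0.43 for Nid2 to Nid1, −1.70 to −1.62 for Lama5 to Lama1 and 0.85 to 1.05 for Lama4 to Lama1. With coding length, shares moved by more than 1 SD to 13.8% (Lama1, ES-HLBs), 24.8% (Lama1, BA), 17.4% (Lama2, ES-FLBs), 49.2%, 53.4%, 53.8%, 36.8% and 17.6% (Lama4 in ES-FLBs, ES-HLBs, E10.5 FLBs, BA and TB) and 28.3% (Lama5, E10.5 FLBs). Of 72 neighbouring steps, chosen by the same values that were tested, 28 to 37 passed.

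Strong pairing by replicate number was not seen: in 0 of 36 pairs of groups did every same-numbered correlation exceed 0.1. This rule cannot exclude weaker pairing, such as tissues taken from the same embryos. The correlations were all above 0 for BA and Ca (0.0561 to 0.089), and all below 0 for E10.5 FLBs and TB (−0.0317 to −0.008). With the number as a block, 9 of 9 genes passed in ES-FLBs against early FLBs and 7 in ES-HLBs against early HLBs, and besides Lamc1 (there and at E10.5) and Lamb1 against E10.5 FLBs no call of a member changed. CPM as deposited moved the share of higher calls over all genes from 40.2% to 66.6% and 33.3% to 58.4% between stages of FLBs and HLBs, from 43.9% to 60.8% and 56.5% to 28.5% between limb types at the early stage and at E10.5, from 48.0% to 59.3% in ES-HLBs against E10.5 HLBs, from 56.9% to 44.8% in the interaction, and from 48.3% to 59.8% and 49.0% to 60.5% for BA and TB. It shifted the median of all genes by 0.13 in ES-HLBs against E10.5 HLBs. In the tissues, CPM as deposited took Lama5 in BA below the threshold (−0.11, adjusted p = 0.19) and Lamb2 in BA (0.19, 0.025) and Lamb1 in TB (0.10, 0.024) past it. Lama4 and Nid2 between E10.5 and early HLBs did not pass with only these groups fitted (adjusted p = 0.069 and 0.071). The causes were not tested. edgeR and DESeq2 were not run. Lamc3 in early limb buds, at 0.11 to 0.86 CPM, lies near the floor.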
